A study of Mus with 9 samples.

Results

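The 36 genes described here encode the enzymes that burn fatty acids in mitochondria and those that make or cleave acyl-CoA. They were taken by symbol from the deposited kidney table, where each of the 36 occurred once among 54532 genes, and 35 carried enough counts to be tested (15902 genes in all). The mice were male C57BL/6 mice in 3 groups of 3, and every mouse, controls included, had lost 1 kidney by unilateral nephrectomy at 18 months of age. The 18 mo group was killed a week after the surgery, without the long injections. The 21 mo group received saline by intraperitoneal injection for 12 weeks, and the 21 mo/O304 group received O304, a pan-AMPK activator, at 10 mg/kg/day for the same 12 weeks. Age, time since nephrectomy and injections therefore differ together between 18 mo and 21 mo and cannot be told apart, whereas 21 mo and 21 mo/O304 differ by the drug. The comparison of 21 mo with 18 mo asked how these enzymes differ as the operated mice age, and that of 21 mo/O304 with 21 mo asked whether the drug moves them.

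Proximal tubule cells take most of their ATP from fatty acids. A fatty acid is first joined to CoA by an acyl-CoA synthetase, and long chains then cross the inner mitochondrial membrane on carnitine through CPT1 and CPT2. In the matrix each turn of beta-oxidation runs through an acyl-CoA dehydrogenase, a hydratase, a hydroxyacyl-CoA dehydrogenase and a thiolase, and the electrons of the dehydrogenase leave through the electron transfer flavoprotein. AMPK is known to favour this entry by phosphorylating acetyl-CoA carboxylase, which lowers malonyl-CoA, the inhibitor of CPT1.

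Total counts were between 15636378 and 18396725 per mouse. The labelled tissue was borne out by its markers, since the 14 proximal tubule markers together reached 35457 to 43292 CPM, read counts scaled to library size, in the 18 mo mice. The 21 mo mice varied far more among themselves than the others, with a coefficient of biological variation of 44.2% against 18.1% in 18 mo and 20.6% in 21 mo/O304. In bulk tissue, fewer cells of a type and less RNA per cell cannot be told apart. Proximal tubule markers summed to 89.9%, 25.8% and 5.23% of the 18 mo mean in 21 mo replicates 1, 2 and 3, and to 104% to 120% in the 21 mo/O304 mice. Much of that sum in 18 mo was Kap, with 20894, 24573 and 17968 CPM in 18 mo and 18932, 2627 and 175 in 21 mo. The median of the 14 markers, on the log2 scale relative to the 18 mo mean, was -0.035, -1.35 and -3.30 in those 21 mo mice. In the 21 mo/O304 mice that median was 0.092 to 0.115. The 8 markers of injured tubule cells summed to 169%, 1486% and 1756% in 21 mo replicates 1, 2 and 3 and to 93.4% to 142% under O304. Most of that sum was Spp1, with 1234.5, 11162 and 12555 CPM in 21 mo and 614 to 742 in 18 mo. Havcr1 had 11.6, 475 and 61.2 CPM in 21 mo and 8.71 to 23.5 in 18 mo. Lcn2 had 17.5, 322.5 and 1258 CPM in 21 mo and 2.1 to 15.4 in 18 mo. Macrophage markers summed to 194%, 308% and 941% at 21 mo and to 143% to 151% under O304, and fibroblast markers to 66.2%, 276% and 633% at 21 mo and to 52.1% to 136% under O304. These sums move with many of the levels below, and their part in them was not tested.

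Most of these enzymes had lower fitted levels in 21 mo than in 18 mo kidneys and levels near those of 18 mo in 21 mo/O304 kidneys, but none of the 35 tested passed edgeR's test across all genes. Their counts together made up 1.02% to 1.16% of the library in 18 mo mice, 0.905%, 0.643% and 0.371% in 21 mo replicates 1, 2 and 3, and 1.08% to 1.25% in 21 mo/O304 mice. In 21 mo against 18 mo the fitted fold change was below 0 for 26 of 35 members (47.3% of all genes tested) and above 0 for 9 (52.7%), and the median log2 fold change was -0.44 against 0.03 over all genes. By edgeR's quasi-likelihood test 0 of 35 members were called higher at an adjusted p of 0.05, where 0.0189% of all genes were, and 0 were called lower, where 0% were. At an unadjusted p under 0.05 stood 12 members, 34.3% of the 35 against 26.1% of all genes, with 3 higher and 9 lower among the members and 2234 higher and 1913 lower among the 15902 genes. The 3 higher were Acsl4, Acsl5 and Acot9, and the 9 lower were Etfb, Mlycd, Acads, Acsm1, Acsm2, Acot13, Hadh, Crat and Etfa. DESeq2 called 2 members higher (6.92% of all genes) and 4 lower (5.43%). All 3 mice of the 21 mo group lay above all 3 of the 18 mo group for 4 members, 11.4% of the 35 against 13.5% of all genes, and below them for 11, 31.4% against 15.3%.

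In 21 mo/O304 against 21 mo the picture had the opposite sign. The fitted fold change was above 0 for 30 of 35 members (48.2% of all genes) and below 0 for 5 (51.8%), with a median of 0.46 against -0.02 over all genes. edgeR called 0 members at an adjusted p of 0.05 in either direction, and 0% of all genes. At an unadjusted p under 0.05 stood 10 members, 28.6% of the 35 against 20.7% of all genes (1315 higher and 1974 lower). The 7 higher were Mlycd, Acsm1, Acsm2, Crat, Cpt1a, Acads and Hadh, and the 3 lower were again Acsl4, Acsl5 and Acot9. DESeq2 called 3 higher (1.81% of all genes) and 2 lower (4.27%). The O304 mice lay wholly above the saline mice for 12 members, 34.3% of the 35 against 10.8% of all genes, and wholly below them for 2, 5.71% against 10.5%. Both comparisons use the same 3 mice of the 21 mo group, so opposite signs in them are not independent results.

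The 21 mo mice differed in how far their levels were from those at 18 mo. The median member stood at 0.11, -0.40 and -1.10 on the log2 scale relative to the 18 mo mean in 21 mo replicates 1, 2 and 3, and at 0.18, 0.04 and 0.08 in the O304 mice. In replicate 1, 11 of 35 members lay below the range of the 18 mo mice and 18 above it, whereas in replicate 3, 29 lay below and 4 above. Without 21 mo replicate 1, edgeR called 3 members higher (13.6% of all genes) and 15 lower (11.9%) than in 18 mo, and 18 higher (10.6%) and 3 lower (12.6%) in 21 mo/O304 against 21 mo. The median log2 fold change was then -0.71 and 0.75 in these 2 comparisons. Without 21 mo replicate 3, edgeR called 0 members in 21 mo against 18 mo (0.378% of all genes higher and 0.428% lower) and 0 in 21 mo/O304 against 21 mo (0% higher and 0.00620% lower), and the medians were -0.15 and 0.24. limma voom with sample quality weights called 6 higher (26.3% of all genes) and 19 lower (26.6%) in 21 mo against 18 mo, and 23 higher (21.2%) and 4 lower (19.8%) in 21 mo/O304 against 21 mo. It gave 21 mo replicates 1, 2 and 3 weights of 0.223, 9.12 and 0.132, so those counts rest mostly on replicate 2.

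**Figure D1:**
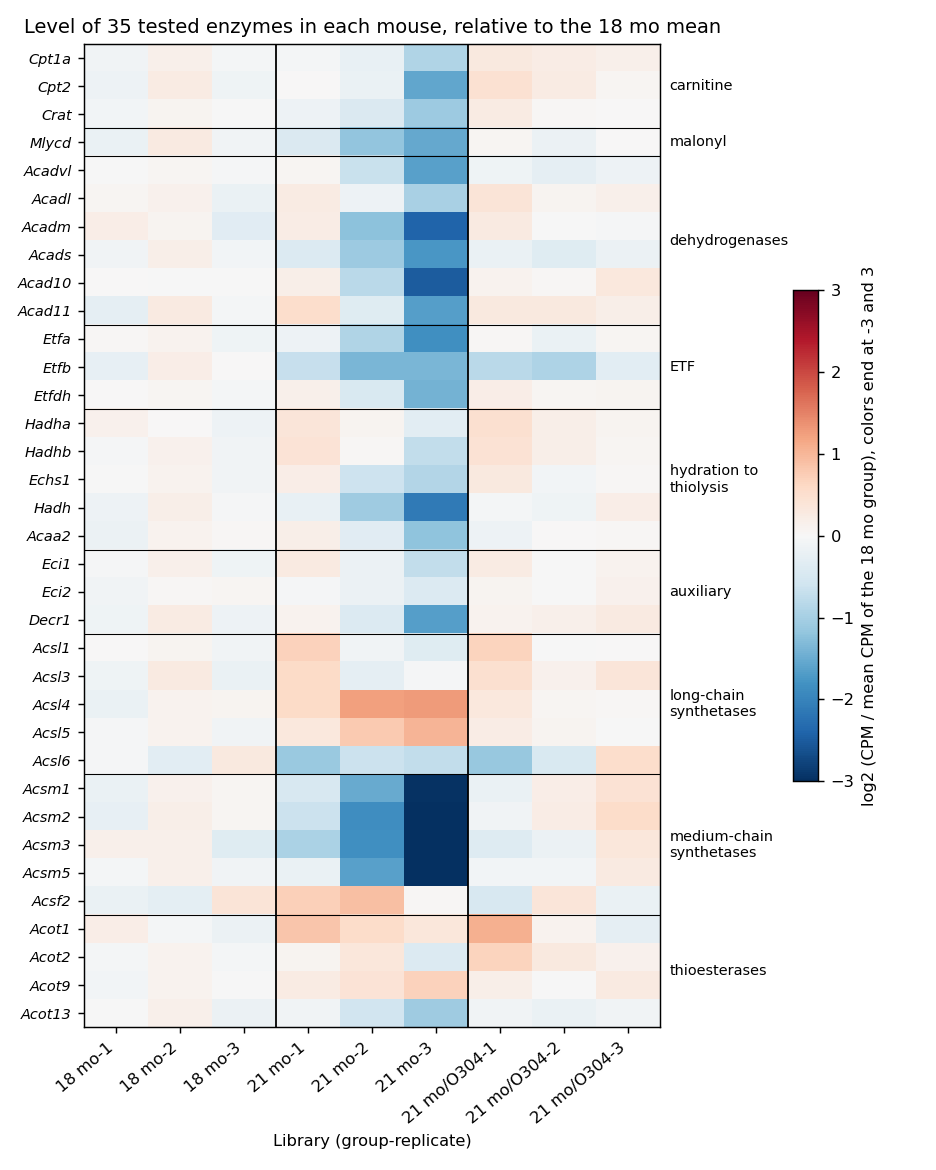
Each cell is the level of 1 gene in 1 mouse as log2 of its CPM over the mean CPM of the 3 mice of the 18 mo group, with genes in rows by role and the 9 libraries in columns. Acsm1, Acsm2, Acsm3 and Acsm5 are pale blue in 21 mo replicate 1 and darkest blue in replicate 3, Acsl4 and Acsl5 are red in the 21 mo mice, and the 21 mo/O304 columns are mostly close to white.

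Levels per transcript length (FPKM) spanned a wide range. Acsm2 stood first of the 36, at 579.6 ± 91.5 FPKM in 18 mo, 193 ± 165 in 21 mo and 688 ± 158 in 21 mo/O304 (SD, n = 3). Etfa, Acadm, Acadl and Acaa2 followed, each at 152 to 214 FPKM in 18 mo and 112 to 136 FPKM in 21 mo. Among the long-chain synthetases Acsl1 had the highest FPKM (18.9 ± 1.30 in 18 mo) and Acsl4 less (8.37 ± 1.07). Of the forms of CPT1, Cpt1a stood at 122 ± 13.2 FPKM in 18 mo, whereas the muscle form Cpt1b had 0 to 6 counts per mouse, too few to test. Acsl6, a synthetase of brain and red cells, was close to absent at 0.113 ± 0.0238 FPKM in 18 mo with 8 to 26 counts per mouse.

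**Figure D2:**
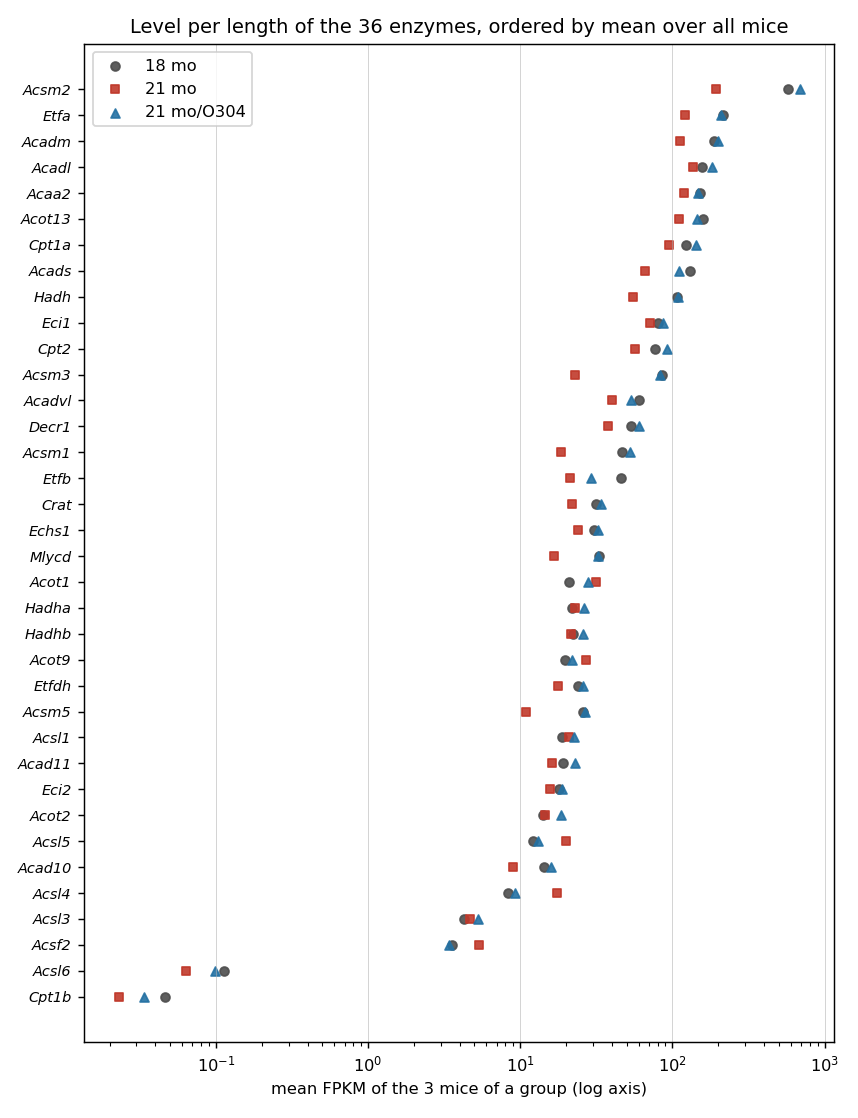
Mean FPKM of the 3 mice of each group for all 36 genes on a log axis, ordered by the mean over all mice. In the 21 mo group Acsm1, Acsm2, Acsm3 and Acsm5 stand well to the left of the other groups, Acsl4 and Acsl5 stand to the right, and Acsl6 and Cpt1b lie near the bottom of the range.

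In the table's coordinates (GRCm38), Acsl4 (ENSMUSG00000031278) lies at chrX:142317993-142390535 on the reverse strand and overlaps no other annotated gene, as do Mlycd (ENSMUSG00000074064, chr8:119394878-119411102, forward) and Cpt1a (ENSMUSG00000024900, chr19:3323301-3385732, forward). Acsl5 (ENSMUSG00000024981, chr19:55251938-55297720, forward) overlaps Zdhhc6, and Etfb (ENSMUSG00000004610, chr7:43444083-43457800, forward) overlaps 3 genes with short or predicted transcripts. In all, 20 of the 36 genes overlap another gene there, and whether counting used the strand was not given in the sources used here, so reads in shared stretches cannot be told apart.

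The long-chain acyl-CoA synthetases, which activate long fatty acids at the mitochondrial outer membrane and the endoplasmic reticulum, did not move as a group. Acsl4, which prefers arachidonic acid and is best known for its part in ferroptosis, had 40.3, 50.4 and 49.0 CPM in 18 mo replicates 1 to 3, 69.0, 109 and 113 in 21 mo and 57.6, 48.5 and 47.6 in 21 mo/O304. Every 21 mo mouse was above every mouse of the other groups. Fold changes of single genes are given on the log2 scale with their SE. That SE was worked back from edgeR's test, as the size of the fold change over the square root of the F statistic. It therefore carries the same information as the p-value. For Acsl4 it was 1.06 ± 0.20 (edgeR adjusted p = 0.0626) in 21 mo against 18 mo and -0.92 ± 0.19 (adjusted p = 0.175) in 21 mo/O304 against 21 mo. Acsl5, a mitochondrial synthetase, had 59.7, 65.8 and 56.7 CPM in 18 mo, 75.7, 105 and 123 in 21 mo and 70.8, 64.0 and 60.5 in 21 mo/O304. It also had no overlap between the 21 mo mice and the others, with fold changes of 0.74 ± 0.17 (edgeR adjusted p = 0.0704) and -0.64 ± 0.17 (adjusted p = 0.175). DESeq2 called both genes in both comparisons, with adjusted p of 0.000404 and 0.00488 for Acsl4 and 0.00782 and 0.0398 for Acsl5.

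Acsl1, the main long-chain synthetase of oxidative tissues, had 207, 216 and 190.4 CPM in 18 mo, 329, 190.2 and 158 in 21 mo and 327, 203 and 206 in 21 mo/O304. The groups overlapped, and replicate 1 stood above the other mice in both 21 mo groups. Its fold changes were 0.14 ± 0.29 (edgeR adjusted p = 0.779) and 0.12 ± 0.29 (adjusted p = 0.819). Without 21 mo replicate 1 the first became -0.21, and without 21 mo/O304 replicate 1 the second became -0.16. Acsl3, a lipid droplet synthetase, had 17.5, 23.0 and 16.6 CPM in 18 mo, 28.4, 15.7 and 18.6 in 21 mo and 26.5, 20.7 and 24.3 in 21 mo/O304, and its groups overlapped. In FPKM the ratio of Acsl4 to Acsl1 was 0.378 to 0.499 in 18 mo, 0.407, 1.11 and 1.38 in 21 mo, and 0.342 to 0.462 in 21 mo/O304. The share of Acsl4 relative to Acsl1 was thus outside the 18 mo range in 21 mo replicates 2 and 3 and within it in replicate 1.

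The Acsm genes, 4 of the 5 medium-chain synthetases, had the lowest fitted fold changes of the members in 21 mo against 18 mo, from -1.89 for Acsm3 to -1.25 for Acsm5. They join medium-chain and aromatic acids such as benzoate to CoA in the matrix, and Acsm2 is abundant in proximal tubule. Acsm2 had 3713, 4976 and 4602 CPM in 18 mo, 2851, 1223 and 362 in 21 mo and 4128, 5139 and 6529 in 21 mo/O304. All 21 mo mice were below all others, and the lowest had 8.16% of the 18 mo mean. The fold changes were -1.58 ± 0.63 (edgeR adjusted p = 0.158) and 1.83 ± 0.64 (adjusted p = 0.188), and DESeq2 gave adjusted p of 0.0369 and 0.0242. Acsm1 had 90.6, 114 and 109 CPM in 18 mo, 74.7, 36.6 and 13.3 in 21 mo and 90.5, 120.3 and 142 in 21 mo/O304. It showed the same order without overlap, with fold changes of -1.33 ± 0.49 (edgeR adjusted p = 0.137) and 1.5 ± 0.49 (adjusted p = 0.182).

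Acsm3 and Acsm5 are given here after their values were seen. Acsm3 had 484, 483 and 339.9 CPM in 18 mo, 227, 122 and 3.07 in 21 mo and 332, 388 and 548 in 21 mo/O304. In 21 mo replicate 3 it was left with 67 counts, 0.705% of the 18 mo mean, and its fold changes of -1.89 ± 1.00 (edgeR adjusted p = 0.259) and 1.85 ± 1.00 (adjusted p = 0.305) had the widest error of all members. Acsm5 had 96.4, 112 and 93.3 CPM in 18 mo, 87.3, 32.7 and 7.65 in 21 mo and 95.1, 95.5 and 122 in 21 mo/O304, with no overlap between 21 mo and either other group. Acsf2, a more distant medium-chain synthetase, did not share this pattern, with 11.0, 10.2 and 16.5 CPM in 18 mo, 20.6, 23.4 and 12.8 in 21 mo and 8.96, 16.3 and 11.0 in 21 mo/O304 and overlap throughout. The 5 genes together summed to 64.2%, 28.3% and 7.84% of the 18 mo mean in 21 mo replicates 1, 2 and 3, which is in the order of the proximal tubule markers (89.9%, 25.8% and 5.23%). These sums rest largely on Acsm2 and, for the markers in 18 mo, on Kap. By medians on the log2 scale the 5 genes stood at -0.48, -1.61 and -3.60 and the markers at -0.035, -1.35 and -3.30. Per length, Acsm2 stood at 0.468 to 0.509 of Slc34a1, the proximal tubule phosphate transporter, in 18 mo, at 0.512, 0.424 and 0.484 in 21 mo and at 0.632, 0.655 and 0.721 in 21 mo/O304. That ratio was higher in each O304 mouse than in any other mouse, a description of a ratio chosen after the values were seen.

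The Acsm genes lie in the same stretch of chromosome 7 in the table's coordinates (GRCm38), all on the forward strand, with other genes among them. Acsm5 spans chr7:119519463-119545551, Acsm2 chr7:119554340-119600690, Acsm1 chr7:119607026-119662515 and Acsm3 chr7:119760923-119787513, a stretch of 268051 bases in all. Other genes there, named after their values were seen, differed among themselves. Thumpd1, between Acsm1 and Acsm3, had 29.2 to 36.8 CPM over all 9 mice, and Eri2, which overlaps Acsm3 and runs past its end, had 7.06 to 10.1 CPM. Ppp1ccb, a transcribed pseudogene, had 11.4 to 13.7 CPM in 18 mo, 8.11 to 9.72 in 21 mo and 7.79 to 10.9 in 21 mo/O304. Gm19950, annotated as antisense within Acsm1, had 205, 262 and 238 CPM in 18 mo, 342, 188 and 55.1 in 21 mo and 343, 301 and 299 in 21 mo/O304. Like the Acsm genes it was lowest in 21 mo replicate 3, but in replicate 1 it was above every 18 mo mouse. Gm45792, also antisense within Acsm1, and Gm39078, between Acsm2 and Acsm1, were likewise lowest in 21 mo replicate 3, at 3.71 and 0.321 CPM, against 25.5 to 29.2 and 2.16 to 3.34 CPM in 18 mo. Acsm4, in the same stretch, was close to absent at 0 to 0.123 CPM. The Acsm genes are paralogs, and the handling of reads that fit several of them was not given in the sources used here, so how counts were split among them is uncertain.

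**Figure D3:**
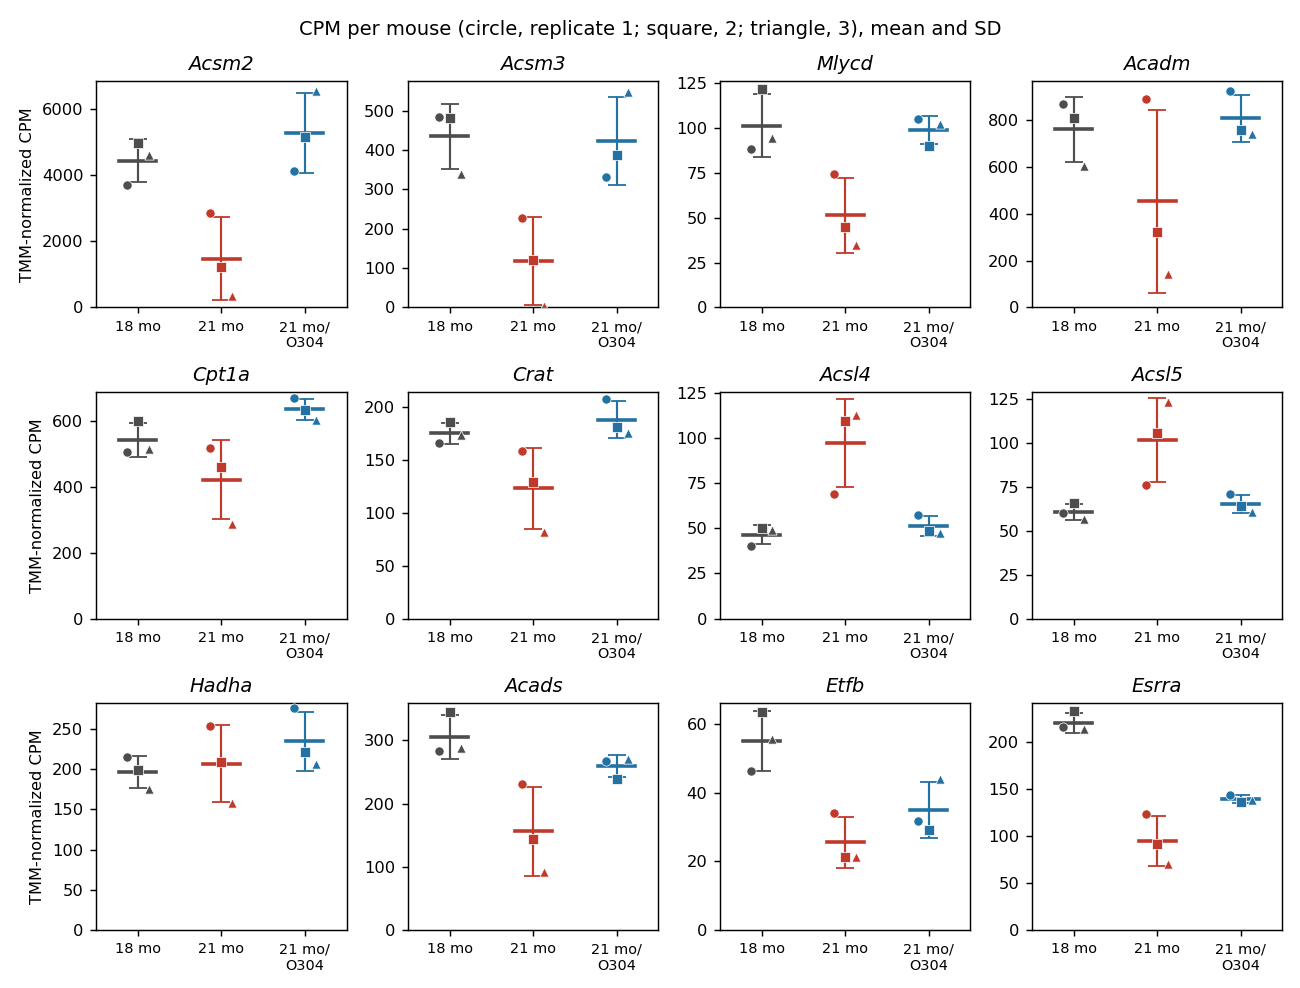
TMM-normalized CPM per mouse for 11 members and for the regulator Esrra, with the mean as a line, the SD as a bar and 3 mice per group. Acsm2, Acsm3 and Mlycd have all 21 mo mice below the rest, Acsl4 and Acsl5 have them above, Hadha overlaps throughout, and for Etfb, Acads and Esrra the 21 mo/O304 mice stay below every 18 mo mouse.

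Entry into mitochondria was represented by Mlycd and the carnitine acyltransferases. Mlycd removes malonyl-CoA and so relieves the block on CPT1. It had 88.1, 121 and 94.1 CPM in 18 mo, 74.5, 44.6 and 34.7 in 21 mo and 105, 90.0 and 102 in 21 mo/O304. The 21 mo mice were below all others, and the fold changes were -0.98 ± 0.26 (edgeR adjusted p = 0.0817) and 0.95 ± 0.26 (adjusted p = 0.175). DESeq2 called it in both comparisons, with adjusted p of 0.0139 and 0.0301. Cpt1a, the rate-limiting step of long-chain entry, had 507, 602 and 517 CPM in 18 mo, 518, 461 and 288 in 21 mo and 669, 635 and 603 in 21 mo/O304. The 21 mo mice reached into the 18 mo range, while each O304 mouse was above every other mouse. Its fold changes were -0.36 ± 0.23 (edgeR adjusted p = 0.339) in 21 mo against 18 mo, 0.59 ± 0.23 (adjusted p = 0.209) in 21 mo/O304 against 21 mo and 0.23 ± 0.23 (adjusted p = 0.791) in 21 mo/O304 against 18 mo.

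Cpt2, which returns the acyl group to CoA inside the membrane, had 169.8, 225 and 173 CPM in 18 mo, 191, 165 and 63.7 in 21 mo and 260.0, 226 and 197 in 21 mo/O304. Only replicate 3 of the 21 mo mice was far below the 18 mo range, and the fold changes were -0.44 ± 0.35 (edgeR adjusted p = 0.442) and 0.70 ± 0.35 (adjusted p = 0.277). Crat, which moves acetyl groups to carnitine, had 166, 185 and 173 CPM in 18 mo, 158, 129 and 81.6 in 21 mo and 207, 181 and 175 in 21 mo/O304. Its 21 mo mice were below both other groups, with fold changes of -0.51 ± 0.22 (edgeR adjusted p = 0.184) and 0.61 ± 0.22 (adjusted p = 0.195). For Cpt1a, Cpt2 and Crat the exact permutation test of 21 mo/O304 against 21 mo gave p = 0.1, two-sided, the smallest that 3 mice against 3 allow.

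The acyl-CoA dehydrogenases take the first oxidation step, each for its own chain length. All 6 had fold changes below 0 in 21 mo against 18 mo, from -0.97 to -0.21, and above 0 in 21 mo/O304 against 21 mo, from 0.41 to 0.84. Acadm, the medium-chain enzyme, had 870.1, 811 and 606 CPM in 18 mo, 893, 324 and 144 in 21 mo and 925, 759 and 742 in 21 mo/O304. Replicate 1 of the 21 mo mice was above the 18 mo range and replicate 3 at 18.8% of the 18 mo mean, so the fold changes had large errors, -0.75 ± 0.54 (edgeR adjusted p = 0.396) and 0.84 ± 0.54 (adjusted p = 0.376). Without 21 mo replicate 1 they were -1.69 (adjusted p = 0.013) and 1.78 (adjusted p = 0.0137). Acads, the short-chain enzyme, had 284, 346 and 288 CPM in 18 mo, 232, 145 and 91.6 in 21 mo and 267, 239 and 271 in 21 mo/O304. The 3 groups did not overlap, and the fold changes were -0.97 ± 0.29 (edgeR adjusted p = 0.0952) and 0.73 ± 0.29 (adjusted p = 0.214). Acadvl and Acadl, the very-long-chain and long-chain enzymes, and Acad10 and Acad11, of less settled substrates, had 21 mo replicate 1 at 104%, 119%, 113% and 143% of the 18 mo mean. In replicate 3 the same 4 genes were at 32.3%, 51.0%, 17.8% and 31.8%. Per length, Acadm stood at 1.10 to 1.32 times Acadl in 18 mo, at 1.18, 0.569 and 0.444 times in 21 mo and at 1.05 to 1.13 times in 21 mo/O304, so within the same 21 mo kidneys the medium-chain enzyme was reduced more than the long-chain one in replicates 2 and 3.

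Electrons from these enzymes pass to Etfa and Etfb, the subunits of the electron transfer flavoprotein, and then to Etfdh, which hands them to ubiquinone. Etfb had 46.3, 63.7 and 55.6 CPM in 18 mo, 34.1, 21.2 and 21.3 in 21 mo and 31.7, 29.0 and 44.2 in 21 mo/O304. The O304 mice stayed below all 18 mo mice and overlapped the 21 mo mice. The fold changes were -1.12 ± 0.24 (edgeR adjusted p = 0.0628) in 21 mo against 18 mo, 0.46 ± 0.24 (adjusted p = 0.289) in 21 mo/O304 against 21 mo and -0.66 ± 0.23 (adjusted p = 0.441) in 21 mo/O304 against 18 mo. Etfa had 412, 432 and 369 CPM in 18 mo, 361, 218 and 113 in 21 mo and 413, 350.0 and 419 in 21 mo/O304. Here the O304 mice ran from just below the 18 mo range into it, and the fold changes were -0.81 ± 0.35 (edgeR adjusted p = 0.184) and 0.77 ± 0.35 (adjusted p = 0.250). The ratio of Etfa to Etfb in FPKM was 4.21 to 5.65 in 18 mo, 6.73, 6.52 and 3.36 in 21 mo and 6.01 to 8.27 in 21 mo/O304, higher in every O304 mouse than in any 18 mo mouse. The ratios given here are a part of those worked out, and for others these 2 groups overlapped. Cpt1a to Cpt2, for example, was 1.49 to 1.66 in 18 mo and 1.43 to 1.70 in 21 mo/O304. Hadha to Hadhb was 0.909 to 1.115 and 0.982 to 1.03. Etfdh had 187, 192 and 178 CPM in 18 mo, 205, 135 and 69.5 in 21 mo and 213, 192 and 197 in 21 mo/O304.

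The steps from hydration to thiolysis differed among themselves. Hadha, the alpha subunit of the trifunctional protein for long chains, had 215, 199 and 176 CPM in 18 mo, 254, 209 and 159 in 21 mo and 276, 221 and 206 in 21 mo/O304. The groups overlapped, and the fold changes were 0.08 ± 0.20 (edgeR adjusted p = 0.834) and 0.18 ± 0.20 (adjusted p = 0.602), the first of which was -0.08 without 21 mo replicate 1. Hadhb, its beta subunit on the opposite strand of chromosome 5, had 139 to 165 CPM in 18 mo, 89.5 to 199.5 in 21 mo and 156 to 202 in 21 mo/O304. Hadh, the dehydrogenase for short and medium chains, named after its values were seen, had 497, 618 and 534 CPM in 18 mo, 470.3, 260.4 and 125 in 21 mo and 529, 505 and 631 in 21 mo/O304. Its 21 mo mice were below both other groups, with fold changes of -0.95 ± 0.40 (edgeR adjusted p = 0.176) and 0.96 ± 0.40 (adjusted p = 0.225). Acaa2, the thiolase, had 209.7, 256 and 244 CPM in 18 mo, 267, 187 and 103 in 21 mo and 212, 238 and 243 in 21 mo/O304, and Echs1, the short-chain hydratase, had 142 to 302 CPM in 21 mo against 244 to 283 in 18 mo. In 21 mo replicate 3, Hadha kept 80.7% and Hadhb 59.6% of the 18 mo mean, compared with 22.8% for Hadh, 43.6% for Acaa2 and 54.3% for Echs1.

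The auxiliary enzymes Eci1, Eci2 and Decr1 prepare unsaturated chains for the cycle. Eci1 had 87.1, 101 and 81.8 CPM in 18 mo, 109, 79.2 and 53.7 in 21 mo and 106, 88.6 and 96.5 in 21 mo/O304, and its groups overlapped. Eci2 kept 74.8% to 96.8% of the 18 mo mean in the 21 mo mice, and Decr1 107%, 75.0% and 31.6% in 21 mo replicates 1, 2 and 3. Both had every O304 mouse above every 21 mo mouse.

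**Figure D4:**
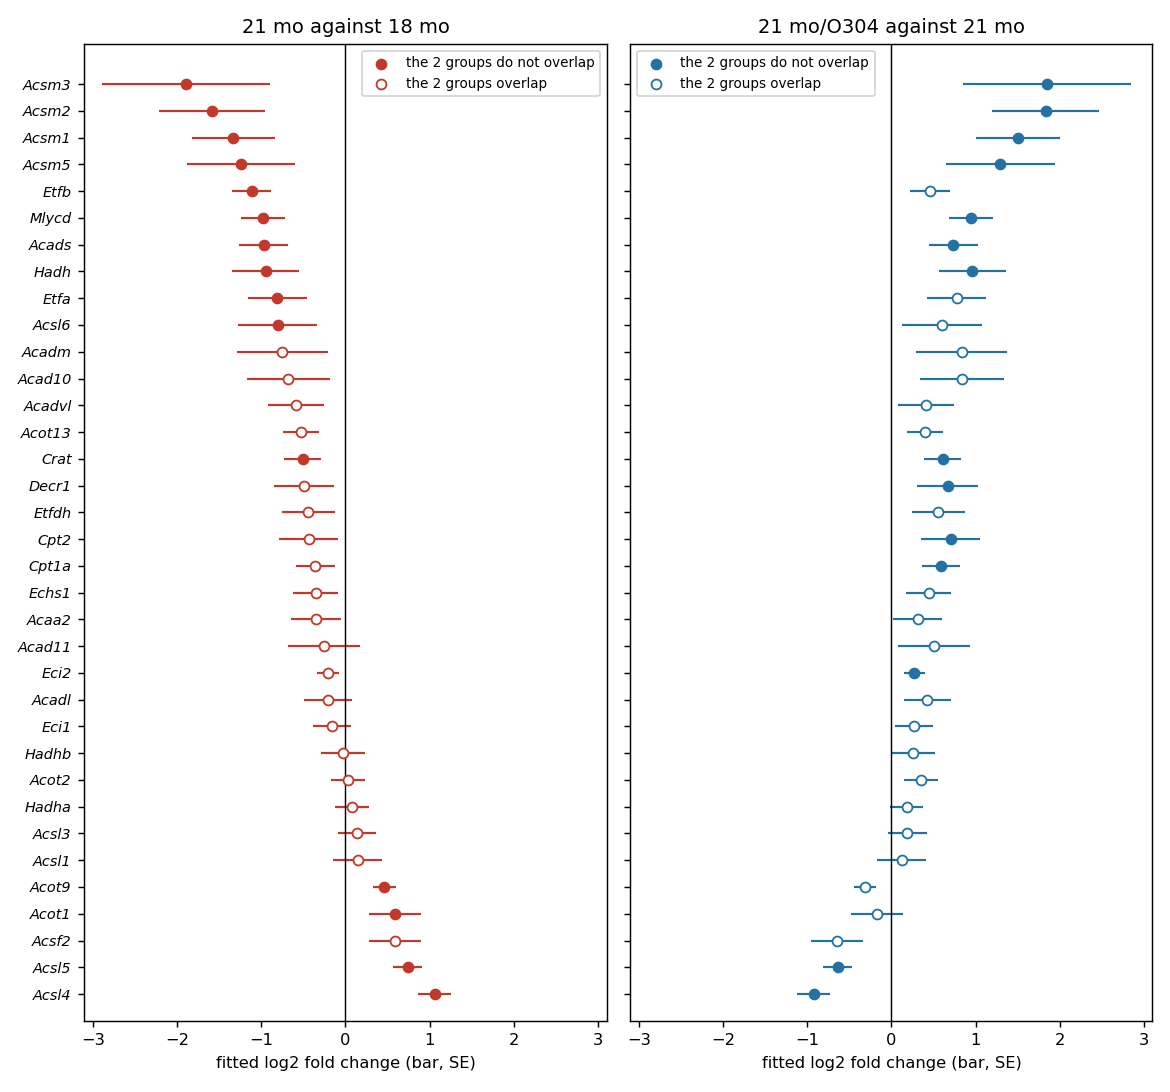
Fitted log2 fold change with its SE for the 35 tested members in 21 mo against 18 mo (left) and 21 mo/O304 against 21 mo (right), ordered by the left panel, from 9 mice in 1 edgeR fit. Filled points mark genes whose 3 mice of one group do not overlap the 3 of the other. The order runs from Acsm3 at the top to Acsl4 at the bottom, and 0 of the points reach an adjusted p of 0.05.

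Thioesterases split acyl-CoA back to fatty acid and CoA. Acot1, the cytosolic enzyme, had 97.1, 80.5 and 75.1 CPM in 18 mo, 151, 123 and 106 in 21 mo and 176, 90.8 and 69.8 in 21 mo/O304. The 21 mo mice were all above the 18 mo mice, the O304 mice spread from below the lowest 18 mo mouse to above every other mouse, and the fold change of 21 mo against 18 mo was 0.59 ± 0.31 (edgeR adjusted p = 0.263). Acot2, its mitochondrial neighbour on chromosome 12, had 30.8, 34.6 and 31.0 CPM in 18 mo, 34.0, 40.5 and 24.1 in 21 mo and 51.1, 39.6 and 35.0 in 21 mo/O304, and its fold change in 21 mo/O304 against 18 mo was 0.38 ± 0.20 (edgeR adjusted p = 0.587). Acot1 and Acot2 are close copies, so reads may have been split between them or lost. Acot9, another mitochondrial thioesterase, had 43.5, 49.7 and 45.6 CPM in 18 mo, 54.9, 61.9 and 74.1 in 21 mo and 52.2, 46.0 and 55.5 in 21 mo/O304. All 21 mo mice were above the 18 mo mice, while 21 mo/O304 replicate 3 reached the 21 mo range, and the fold changes were 0.46 ± 0.14 (edgeR adjusted p = 0.0914) and -0.32 ± 0.14 (adjusted p = 0.234). Acot13, a thioesterase associated with mitochondria, had 122, 137 and 109 CPM in 18 mo, 114, 82.5 and 58.5 in 21 mo and 114, 107 and 114 in 21 mo/O304, with a fold change of -0.53 ± 0.22 (edgeR adjusted p = 0.167) in 21 mo against 18 mo.

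Set against 18 mo, the 21 mo/O304 kidneys had levels below every 18 mo mouse for Etfb, Acads and Acadvl and above for Cpt1a, Acot2, Acad10 and Etfdh. edgeR called 0 of 35 members (0% of all genes in either direction), as did DESeq2 (0.317% of all genes higher and 0.552% lower), and at an unadjusted p under 0.05 it had 1 member, Etfb, which was lower (2.86% of the 35 against 9.66% of all genes). limma voom with sample quality weights called 0 members higher (1.04% of all genes) and 1 lower, again Etfb (1.57%). The 4 members without overlap on the higher side were 11.4% of the 35 against 13.2% of all genes, and the 3 on the lower side 8.57% against 13.3%, so neither share was above the background. Fitted fold changes were above 0 for 25 of 35 members (50.4% of all genes) and below 0 for 10 (49.6%), with a median of 0.11. Acads had 259 ± 17.2 CPM in 21 mo/O304 against 306 ± 34.8 in 18 mo (SD, n = 3), a fold change of -0.24 ± 0.29 (edgeR adjusted p = 0.842). This comparison shares its mice with the other comparisons. In these fits 1 estimate of spread per gene served all 9 mice, so the 21 mo mice entered the error of this comparison too. Their coefficient of biological variation was 44.2%, against 18.1% in 18 mo and 20.6% in 21 mo/O304.

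**Figure D5:**
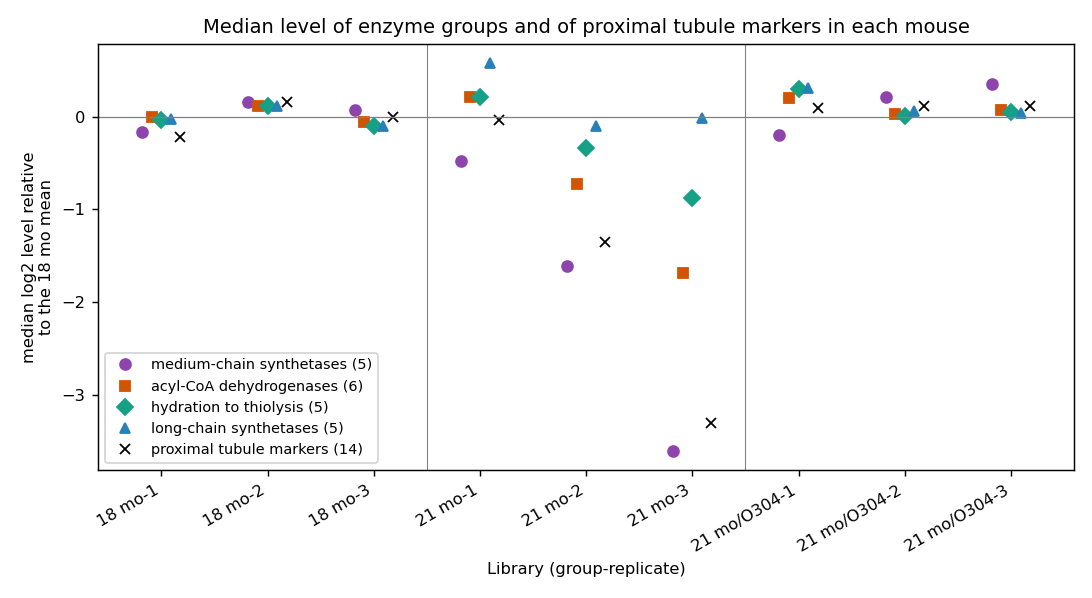
Median level of 4 groups of members and of 14 proximal tubule markers in each mouse, on the log2 scale relative to the 18 mo mean, with the number of genes in each list in brackets. In 21 mo replicate 3 the medium-chain synthetases stand at -3.60 and the proximal tubule markers at -3.30, the dehydrogenases at -1.68 and the steps from hydration to thiolysis at -0.88, while the long-chain synthetases stand at -0.01.

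The roles could be ordered by their place in 21 mo replicate 3, the mouse with the lowest proximal tubule markers. Summed CPM relative to the 18 mo mean was 7.84% for medium-chain synthetases, 28.9% for dehydrogenases, 31.5% for the electron transfer flavoprotein chain and 34.3% for Mlycd. It was 44.4% for the steps from hydration to thiolysis, 47.9% for the carnitine shuttle, 48.8% for the auxiliary enzymes, 92.2% for the thioesterases and 125% for the long-chain synthetases. In 21 mo replicate 1 the same sums lay between 64.2% for medium-chain synthetases and 151% for long-chain synthetases, with 73.6% for Mlycd. The order of the roles between them was not that of replicate 3. There the dehydrogenases (112%) stood above the carnitine shuttle (95.7%) and the steps from hydration to thiolysis (107%). By these sums only the ends held, with the medium-chain synthetases the lowest role and the long-chain synthetases the highest in each of the 3 mice of the 21 mo group. By medians on the log2 scale, the thioesterases (0.38) stood above the long-chain synthetases (-0.10) in 21 mo replicate 2. In replicate 3 these 2 roles were nearly level (-0.04 and -0.01). Acsf2, of the medium-chain role, was at 164%, 186% and 102% of the 18 mo mean in 21 mo replicates 1, 2 and 3.

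Genes around these enzymes were described by list. Of 12 regulators of fatty acid oxidation, edgeR called 0 in any comparison, and at an unadjusted p under 0.05 stood 0 higher and 3 lower in 21 mo against 18 mo, 25.0% of the 12 against 26.1% of all genes. In 21 mo/O304 against 21 mo 4 higher and 0 lower did, 33.3% against 20.7%. Esrra, an estrogen-related receptor known to switch on genes of mitochondrial oxidation, had 216, 234 and 214 CPM in 18 mo, 123, 91.5 and 70.0 in 21 mo and 144, 136 and 139 in 21 mo/O304. The 3 groups did not overlap, and the O304 mice stood between the other groups. The fold changes were -1.22 ± 0.19 (edgeR adjusted p = 0.0626), 0.56 ± 0.19 (adjusted p = 0.187) and, against 18 mo, -0.66 ± 0.19 (adjusted p = 0.345). Ppara, the fatty acid receptor, had 45.5, 54.2 and 69.0 CPM in 18 mo, 78.8, 47.9 and 19.2 in 21 mo and 52.7, 74.0 and 74.3 in 21 mo/O304, with overlap throughout. Its coactivator Ppargc1a had 50.6 to 63.9 CPM in 18 mo, 37.1 to 79.4 in 21 mo and 56.7 to 63.4 in 21 mo/O304, likewise overlapping. For Ppargc1b and Rxra, in contrast, the 21 mo mice were below both other groups. Ppargc1b had fold changes of -0.98 ± 0.28 (edgeR adjusted p = 0.0858) and 0.73 ± 0.28 (adjusted p = 0.201). Those of Rxra were -0.65 ± 0.23 (edgeR adjusted p = 0.123) and 0.60 ± 0.23 (adjusted p = 0.204). Ppara, Ppargc1a, Ppargc1b and Rxra are given after their values were seen.

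Of 21 carnitine carriers and other mitochondrial acyl-CoA enzymes, such as those of branched-chain amino acid breakdown, 20 had a fold change below 0 in 21 mo against 18 mo and 20 above 0 in 21 mo/O304 against 21 mo. The medians were -0.60 and 0.65, and edgeR called 0. An unadjusted p under 0.05 was reached by 4 lower in the first comparison (19.0% of the 21 against 26.1% of all genes) and 5 higher in the second (23.8% against 20.7%). Of 16 genes of peroxisomal beta-oxidation, 15 were below 0 and then 16 above 0, with medians of -0.46 and 0.63, and 0 called. At an unadjusted p under 0.05 stood 3 lower and then 3 higher, each 18.8% of the 16, below the 26.1% and 20.7% of all genes.

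Of 18 PPAR target genes outside the 36, 16 were tested and edgeR called 0. Their median fold change was 0.42 in 21 mo against 18 mo and 0.45 in 21 mo/O304 against 21 mo, where the 36 enzymes had -0.44 and 0.46. An unadjusted p under 0.05 was reached by 6 higher and 2 lower in the first comparison (50.0% of the 16 against 26.1% of all genes) and by 2 higher and 2 lower in the second (25.0% against 20.7%). Ucp2, a mitochondrial carrier of the inner membrane, had 93.8, 102 and 104 CPM in 18 mo, 128, 201 and 224 in 21 mo and 115, 109 and 97.5 in 21 mo/O304. The 21 mo mice were above both other groups, with fold changes of 0.88 ± 0.20 (edgeR adjusted p = 0.0691) and -0.78 ± 0.20 (adjusted p = 0.175). Cyp4a14, an omega-hydroxylase of fatty acids, had 30.2, 62.1 and 38.2 CPM in 18 mo, 577, 345 and 128 in 21 mo and 162, 99.5 and 38.6 in 21 mo/O304, and Pdk4, which spares glucose by blocking pyruvate dehydrogenase, had 16.7, 25.3 and 15.4 CPM in 18 mo, 101, 85.4 and 19.9 in 21 mo and 69.0, 60.4 and 59.9 in 21 mo/O304. For Pdk4 each O304 mouse was above each 18 mo mouse.

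White adipocyte markers, which bear on fatty acid genes because fat around the kidney can enter a sample, summed to 67.1 to 107 CPM in 18 mo, 51.4 to 145 CPM in 21 mo and 139 to 339 CPM in 21 mo/O304. Most of that sum in 18 mo and 21 mo was Fabp4, with 46.0 to 89.7 and 30.1 to 128 CPM, against 101 to 147 in 21 mo/O304. Plin1 had 12.6, 1.13 and 5.35 CPM in 21 mo/O304 and at most 1.02 CPM in the other mice. Adipoq, the adipocyte hormone adiponectin, had 21.6, 1.97 and 15.1 CPM in 21 mo/O304 and at most 1.41 CPM in the other mice. Of the brown adipocyte markers, Ucp1 was at or below 0.339 CPM in all 9 mice, and Elovl3 and Cox8b at or below 0.191 and 0.640. Cidea had 0 CPM in every 21 mo mouse and 0.814, 0.119 and 0.191 in 21 mo/O304, with at most 0.396 in 18 mo. Cox7a1 had 11.1 to 15.6 CPM in 18 mo, 3.76 to 6.76 in 21 mo and 5.125 to 7.51 in 21 mo/O304. The part of adipocyte RNA in the levels of the 36 enzymes under O304 was not tested.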

How the data were processed

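RNA of 9 mouse kidneys, 1 library per mouse, was sequenced by the authors, and replicates were not pooled. Per the labels' processing notes the tools were HISAT2 2.0.5, featureCounts 1.5.0-p3 and DESeq2 1.20.0, with the builds GRCm38 and mm10. The deposited counts are whole reads per gene without normalization. The deposited FPKM values were made by the authors from counts and gene length and were used here to compare levels between genes. The table also holds the authors' own fold changes and p-values, which were not used. Strand settings and the handling of reads with several hits were not given in the sources used here.

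Counts were filtered with filterByExpr (minimum count 10, minimum total 15), which kept 15902 of 54532 genes, normalized by TMM and fitted with edgeR 4.0.16 (R 4.3.3) by the quasi-likelihood test, with 3 group means over 9 libraries and 6 residual degrees of freedom. Tests were two-sided, with Benjamini-Hochberg adjustment over all genes and a threshold of 0.05. CPM values are TMM-normalized. Counts covered 15636378 to 18396725 reads per mouse. The labels do not say more of how mice of a group relate than their number, so p-values measure the spread between these mice. The exact permutation test of 3 against 3 mice cannot go below 0.1.

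The members and the lists of pathway and marker genes were chosen with earlier results of these data known. All 36 members are named, with values in every mouse for those with the 6 smallest p-values in a comparison, for Cpt1a and Cpt2, which the study assayed by PCR, and for the member of each role with the highest FPKM. Others with such values were chosen after they were seen. All 36 had a RefSeq gene of the same symbol at overlapping coordinates in GRCm38.p6. Alternatives were DESeq2 1.42.0, upper-quartile normalization, no filter on low counts, the 6 libraries of a comparison alone, a replicate block, limma 3.58.1 (voom with sample quality weights, and limma-trend on the deposited FPKM, log2-transformed after adding 1 and kept where the gene's mean reached 0.5) and each library left out in turn. The fitting was tested on simulated counts.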

Additional observations from a re-analysis of the deposited data

How the results depend on the processing

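The counts of called members depended on the test and on single 21 mo mice, while the sign of the median fold change was the same under every alternative run. With DESeq2 the members called in 21 mo against 18 mo were 2 higher and 4 lower, and in 21 mo/O304 against 21 mo 3 higher and 2 lower. Without a filter on low counts they were 2 higher and 1 lower in 21 mo against 18 mo. The share of all genes called under that setting was not worked out, so this count has no background beside it. With limma voom and sample quality weights they were 6 higher and 19 lower, then 23 higher and 4 lower, and 1 lower in 21 mo/O304 against 18 mo. Leaving out 1 library at a time gave 0 to 3 higher and 0 to 15 lower in 21 mo against 18 mo, and 0 to 18 higher and 0 to 3 lower in 21 mo/O304 against 21 mo. The highest of these came without 21 mo replicate 1, and the other libraries left out gave 0 members. The cause was not tested. Reversed signs were those of Hadha (-0.08) and Acsl1 (-0.21) in 21 mo against 18 mo without 21 mo replicate 1, Acsl1 there with voom (-0.059), and Acsl1 in 21 mo/O304 against 21 mo without 21 mo replicate 3 (-0.07) or without 21 mo/O304 replicate 1 (-0.16). With 1 library left out at a time these values ran from -0.08 to 0.22 for Hadha, from -0.21 to 0.33 for Acsl1 in 21 mo against 18 mo and from -0.16 to 0.49 for Acsl1 in 21 mo/O304 against 21 mo. Upper-quartile normalization and limma-trend on FPKM moved no call. Of 45 fold changes of single genes, 36 passed the threshold with voom, 30 without 21 mo replicate 1, 14 with DESeq2, 5 without a filter on low counts, 1 with the 6 libraries compared alone and 1 without 21 mo replicate 3, where 0 did in edgeR with all libraries. Those genes were named in part for their small p-values, so these counts are no rate for the members.

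Same-numbered mice did not deviate together (r = -0.06, 0.15 and 0.14 in 21 mo against 18 mo, 0.09, -0.13 and 0.17 in 21 mo/O304 against 21 mo), so the numbers were not taken as pairs. With the replicate block 0 members were called in each comparison and the medians were -0.53, 0.51 and 0.11. Depth limited Acsl6 and Cpt1b, with at most 26 and 6 counts per mouse. With 3 mice per group and the wide spread at 21 mo, a p that misses the threshold does not show that levels were equal.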

Other observations

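Several genes of mitochondrial acyl-CoA breakdown outside the 36 ran alongside them, and are given here after their values were seen. Acat1, the mitochondrial acetoacetyl-CoA thiolase, had 909, 906 and 763 CPM in 18 mo, 749, 287 and 135 in 21 mo and 916, 795 and 971 in 21 mo/O304. Ivd, which oxidizes isovaleryl-CoA from leucine, had 629.9, 629 and 521 CPM in 18 mo, 552, 244 and 96.2 in 21 mo and 644, 521 and 574 in 21 mo/O304. In both genes 21 mo replicate 3 was the lowest of the 9 mice, and for Acat1 the 21 mo mice were below both other groups.

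Slc22a5, the plasma membrane carnitine carrier OCTN2, had 212, 314 and 265 CPM in 18 mo, 254, 199 and 82.2 in 21 mo and 322, 347 and 320.2 in 21 mo/O304. Every O304 mouse was above every other mouse, as for Cpt1a, with an edgeR adjusted p of 0.215 against 21 mo. The margin over the highest 18 mo mouse was narrow, 320.2 against 314 CPM. Of the 21 genes of its list, 2 had every O304 mouse above every 18 mo mouse, where 13.2% of all genes did. Slc22a5 and Cd36 are given after their values were seen. Cd36, the fatty acid transporter, had 347, 457 and 332 CPM in 18 mo, 387, 259 and 46.3 in 21 mo and 476, 469 and 601 in 21 mo/O304, with an edgeR adjusted p of 0.281 against 21 mo, and its O304 mice were also above all others. Of the 16 PPAR target genes tested, to which it belongs, 9 had every O304 mouse above every 18 mo mouse.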
